A study of Sus scrofa with 3 samples.

Results

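The genes described here build, cross-link and cut the extracellular matrix: collagens, laminins, nidogens, perlecan, agrin, fibronectin, periostin, SPARC, lysyl oxidases, matrix metalloproteinases (MMPs), their tissue inhibitors (TIMPs) and ADAMTS proteases. They were chosen by name, as the rows of the count table whose symbol begins with COL plus a chain number, LAMA, LAMB, LAMC, MMP, TIMP, ADAMTS or LOX, plus 7 single genes (FN1, AGRN, HSPG2, NID1, NID2, POSTN, SPARC). This gave 101 of 34570 genes. Of these, 2 are matched by their letters alone: COL4A3BP, a ceramide transfer protein, and LOXHD1, a protein of inner-ear hair cells. The other 99 belong to the matrix families, so the members fit their label. The names TIMP-3 and TIMP-4 carry a hyphen and fall outside the rule, and TIMP-3 is given beside the members.

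The matrix of the kidney has layers that different genes build. Basement membranes under tubules, capillaries and podocytes are sheets of collagen IV and laminin networks, held together by nidogens and the heparan sulfate proteoglycans perlecan (HSPG2) and agrin. Most kidney basement membranes hold collagen IV of alpha 1 and alpha 2 chains, while the mature glomerular basement membrane holds the alpha 3, alpha 4 and alpha 5 chains, made by podocytes. Fibrillar collagens with collagen VI and fibronectin fill the interstitium, where fibroblasts and vessel wall cells make them and lysyl oxidases cross-link them. MMPs and ADAMTS enzymes cut these proteins and TIMPs block the MMPs, and this balance is much studied in kidney fibrosis.

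Kidney tissue came from Chinese Wuzhishan Pigs, a miniature breed, aged 6 to 7 months and all on a diet high in fat and cholesterol. The groups were castrated males with testosterone replacement (CMT), castrated males (CM) and intact males (IM), with RNA of 3 pigs pooled into 1 library for each group. The design text speaks of triplicates, whereas the table holds 1 column of counts per group, so no spread between pigs could be estimated and differences have no replicate check. Neither the testosterone dose nor the interval after castration is given in the sources used here, and a group on a standard diet is not analysed here.

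Total counts were 13601475 in CMT, 18503537 in CM and 16459771 in IM, and the limit used for a count of 0 is 3 counts (one-sided), or 0.227 scaled CPM in CMT, 0.159 in CM and 0.181 in IM. Scaled CPM are CPM, counts relative to the library total, after correction with a TMM factor, which was between 0.973 and 1.02. Ribosomal RNA genes held 1.73% to 2.14% of a library and mitochondrially encoded genes 8.43% to 8.83%. The kidney label was met by markers of the proximal tubule, of which 7 of 8 were in the table and none was at 0, with a summed level of 10396 scaled CPM in CMT, 10868 in CM and 9632 in IM.

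Summed over the 101 members, matrix RNA differed little between the 3 libraries. Rows outside the rule, such as TIMP-3 and the numbered rows given below, are not in this sum. The 101 members together held 45651 counts in CMT, 61315 in CM and 57865 in IM, which is 0.336% of the CMT library, 0.331% of CM and 0.352% of IM. Of the members, 69 had a mean of at least 1 scaled CPM over the libraries and were compared, 21 had counts but less than that, and 11 had 0 counts throughout. A ratio is given with its exact 95% interval, which covers counting error only, and higher and lower are said only of a gene whose whole interval lies beyond 2-fold or, by a second rule, beyond 1.5-fold. The summed members had a ratio of 0.928 (0.918 to 0.939) for CM over IM, small but beyond counting error. Only 7 of the 69 compared members passed the second rule in any comparison: COL4A3, POSTN, LAMC3, AGRN, COL6A5, MMP7 and ADAMTS4. In a pool, fewer cells of a type and less RNA per cell cannot be told apart.

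For CM against IM, 2 of 69 members were higher beyond 1.5-fold, beside 2.81% of all 15472 compared genes, and 1 was lower, beside 3.42%. Beyond 2-fold, 0 members were called in either direction, beside 1.2% higher and 1.52% lower among all. For CMT against CM, 2 were higher beyond 1.5-fold (background 3.68%) and 1 lower (background 2.61%), and ADAMTS4 alone passed 2-fold, upwards (background 1.84% higher, 1.11% lower). For CMT against IM, 2 were higher (background 2.3%) and 2 lower (background 1.44%) beyond 1.5-fold, and AGRN and MMP7 were higher beyond 2-fold (background 0.905% higher, 0.595% lower). As shares of the 69, 1 gene is 1.45% and 2 genes are 2.90%. The CMT against IM shares stand above the background for the 2 higher genes beyond 2-fold and the 2 lower genes beyond 1.5-fold, on 2 genes each, and at such counts nothing is read from these shares about matrix genes as a group. The median log2 fold of the compared members was 0.06 for CM over IM, 0.02 for CMT over CM and 0.13 for CMT over IM, beside -0.01 for CM over IM, -0.0043 for CMT over CM and -0.01 for CMT over IM over all compared genes. The log2 fold was above 0 for 39 of 69 members in CM over IM, 37 of 69 in CMT over CM and 43 of 69 in CMT over IM, beside 49.3% of all compared genes for CM over IM, 49.3% for CMT over CM and 48.2% for CMT over IM.

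**Figure D1:**
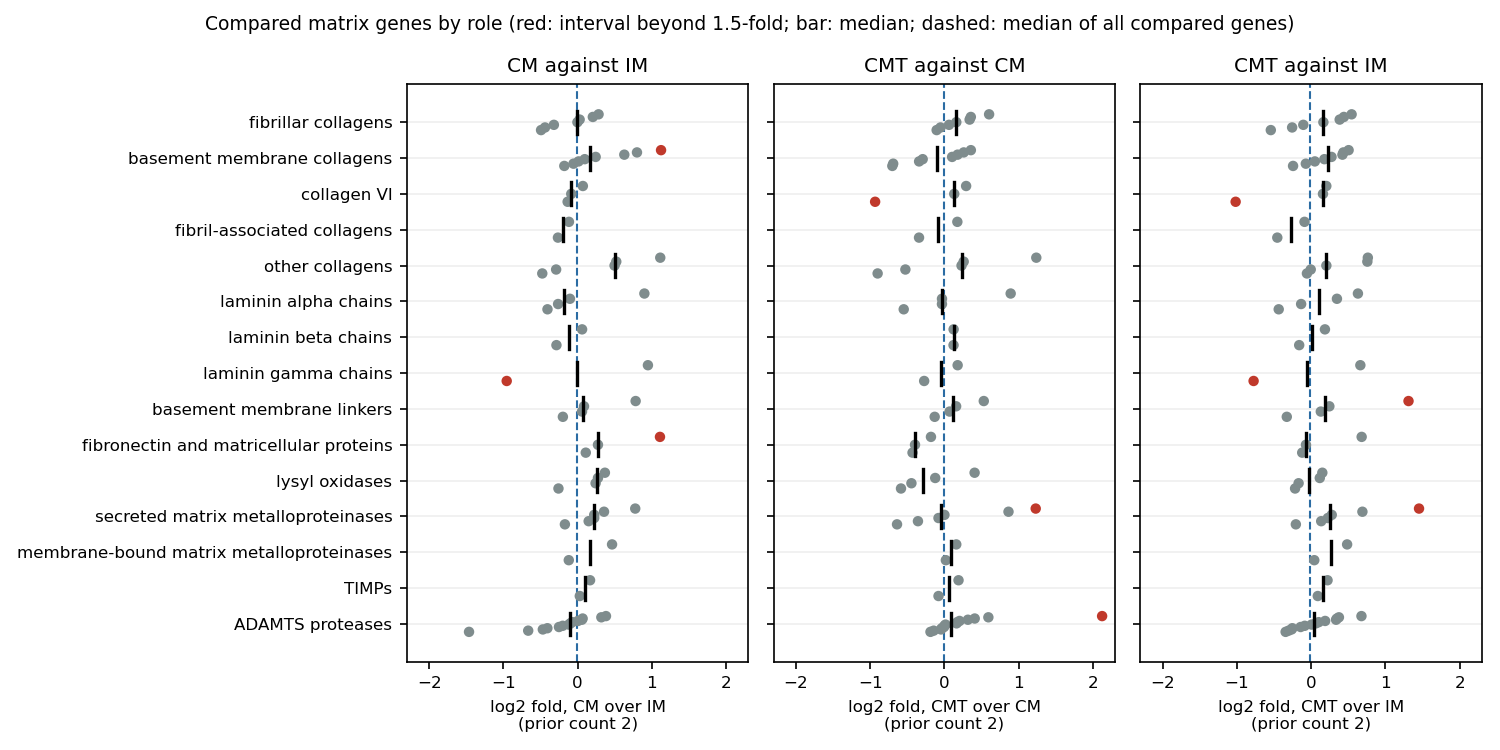
Log2 fold of each compared member (points), by role, for CM over IM, CMT over CM and CMT over IM. Most points lie close to the dashed line, the median of all compared genes, and the red points are the members whose interval lies beyond 1.5-fold, among them COL4A3 and POSTN on the right of the first panel and ADAMTS4 on the right of the second.

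Among the basement membrane collagens, a chain of the glomerular network was higher in the castrated pool. COL4A3, the alpha 3 chain, had 21 scaled CPM in CMT, 34.0 in CM and 15.5 in IM, with 278 counts in CMT, 642 in CM and 257 in IM. CM was the highest pool, and the counting intervals of the 3 levels did not overlap. COL4A3 was 2.19-fold (1.89 to 2.54) higher in CM than in IM, and CMT had a ratio of 0.618 (0.535 to 0.713) to CM, short of the 1.5-fold rule. COL4A4, the alpha 4 chain, had 17.7 scaled CPM in CMT, 28.8 in CM and 18.6 in IM. CM again held the highest level while CMT and IM lay within each other's counting intervals, with ratios of 1.55 (1.35 to 1.79) for CM over IM and 0.613 (0.524 to 0.716) for CMT over CM, neither passing the rule. COL4A3 and COL4A4 are next to each other in the RefSeq gene order of Sscrofa11.1. COL4A5, which joins them in the glomerular trimer, had 20.9 scaled CPM in CMT, 19.5 in CM and 20.2 in IM and overlapping intervals throughout.

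**Figure D2:**
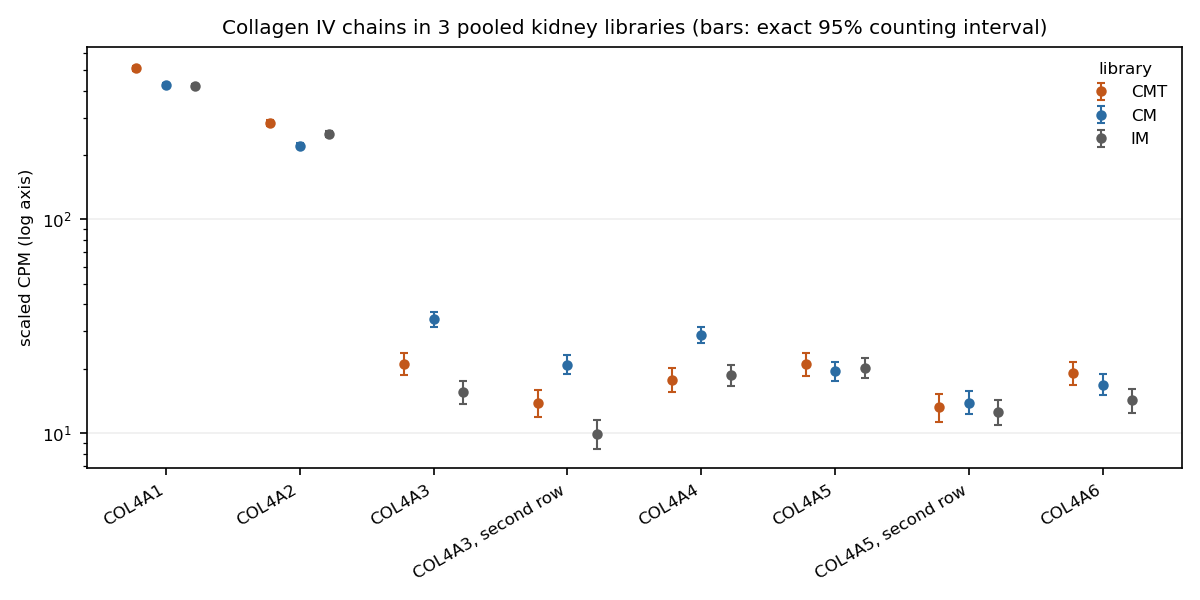
Scaled CPM (log axis) of the collagen IV chains in the CMT, CM and IM libraries, with exact 95% counting intervals. CM stands above the other libraries for both COL4A3 rows and for COL4A4, and the levels of COL4A5 are close to each other.

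The common collagen IV chains followed another order, with CMT highest. COL4A1 had 509.8 scaled CPM in CMT, 426 in CM and 422 in IM, and its neighbour in the gene order COL4A2 had 284 scaled CPM in CMT, 221 in CM and 251 in IM. For CMT over CM the ratio was 1.2 (1.16 to 1.24) for COL4A1 and 1.28 (1.22 to 1.34) for COL4A2, beyond counting error but far from 1.5-fold. COL4A6 had 19 scaled CPM in CMT, 16.8 in CM and 14.2 in IM. The 6 chains thus did not move as one: for CMT over CM, log2 folds were 0.26 and 0.36 for the alpha 1 and alpha 2 genes against -0.69 and -0.70 for the alpha 3 and alpha 4 genes. Podocytes make the alpha 3 and alpha 4 chains. All 8 podocyte markers (among them NPHS1, PODXL, SYNPO, WT1, PTPRO, PLCE1, CLIC5) were compared with none at 0, summing to 407 scaled CPM in CMT, 369 in CM and 338 in IM, and their log2 folds ran from -0.06 to 0.40 for CM over IM. For CMT over CM, where COL4A3 and COL4A4 lay below 0, the podocyte markers ran from -0.21 to 0.56, and 6 of 8 were above 0. Their part in the collagen IV ratios was not tested. COL15A1 and COL18A1 are collagens of basement membrane zones that carry long sugar chains. COL15A1 had 35.8 scaled CPM in CMT, 45.4 in CM and 42.5 in IM, and COL18A1 had 4.08 scaled CPM in CMT, 5.03 in CM and 2.84 in IM. For COL18A1 the ratio of CM to IM was 1.77 (1.24 to 2.57), and neither gene was called.

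Laminins are trimers of an alpha, a beta and a gamma chain, and 1 gamma chain differed. LAMC3, the gamma 3 chain, had 41.6 scaled CPM in CMT, 36.7 in CM and 71.3 in IM, from 550 counts in CMT, 694 in CM and 1180 in IM. IM stood alone at the top, and CMT and CM lay close together. LAMC3 was 1.94-fold (1.77 to 2.14) lower in CM than in IM and 1.72-fold (1.55 to 1.90) lower in CMT than in IM, while CMT had a ratio of 1.13 (1.01 to 1.27) to CM. LAMC1, the gamma chain of most kidney laminins, is not listed under its symbol; a row whose number RefSeq pairs with LAMC1 had 129 scaled CPM in CMT, 142 in CM and 126 in IM, with no ratio called.

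Beta and alpha chains of laminin were not called in any comparison. LAMB1 had 592 scaled CPM in CMT, 544 in CM and 662 in IM, with a CM to IM ratio of 0.821 (0.799 to 0.843). LAMB2, the beta chain of the mature glomerular membrane, had 149 scaled CPM in CMT, 136 in CM and 131 in IM. LAMA4 of vessel walls had 24.6 scaled CPM in CMT, 25.1 in CM and 27 in IM, and LAMA2 had 18.5 scaled CPM in CMT, 18.9 in CM and 25.1 in IM, with IM highest for both. LAMA2 had ratios of 0.754 (0.653 to 0.870) for CM over IM and 0.737 (0.627 to 0.865) for CMT over IM. Both LAMA1 and LAMA3 were sparse, LAMA1 with 33 counts in CMT, 70 in CM and 32 in IM and LAMA3 with 43 counts in CMT, 32 in CM and 34 in IM. Their intervals reached below 1.5-fold even where the point ratio was high, as for LAMA3 in CMT over CM at 1.92 (1.19 to 3.13). LAMA5 is not analysed here.

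Of the genes that link laminin to collagen IV, agrin differed. AGRN, a proteoglycan of the glomerular basement membrane, had 22.5 scaled CPM in CMT, 15.6 in CM and 9.0 in IM, from 298 counts in CMT, 294 in CM and 149 in IM, and the counting intervals of the 3 libraries did not overlap. AGRN was 2.50-fold (2.05 to 3.07) higher in CMT than in IM, and ratios were 1.73 (1.41 to 2.12) for CM over IM and 1.45 (1.23 to 1.71) for CMT over CM, neither called. Beyond 2-fold this call was lost with plain library totals and with a 99% interval. Beyond 1.5-fold it held under every alternative tried, all on this row. The filters, the looked-up symbols, the leaving out of COL4A3BP with LOXHD1 and the other prior count could not have changed it. A second AGRN row with more counts, given below, was called by neither rule. The podocyte markers summed to 407 scaled CPM in CMT and 338 in IM, a ratio of 1.2 (1.16 to 1.25), with 8 of 8 above 0, and their part in the AGRN ratio was not tested. HSPG2, perlecan, had 115 scaled CPM in CMT, 103 in CM and 96.8 in IM. Of the nidogens, which bridge the networks, NID1 had 12.2 scaled CPM in CMT, 11.6 in CM and 11.1 in IM, and NID2 had 86.4 scaled CPM in CMT, 94.6 in CM and 109 in IM. NID2 had its lowest level in CMT, at a ratio of 0.796 (0.738 to 0.857) to IM.

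Several members occur on 2 rows of the table, which gives a second reading of the same libraries. RefSeq pairs 16 numbered rows with a symbol that fits the rule, of which 13 belong to a gene that also has a row under its symbol, and both rows were compared for 9 genes. What part of a gene each row covers was not given in the sources used here. COL4A3 gave the same picture on both: its second row had 13.8 scaled CPM in CMT, 20.9 in CM and 9.84 in IM and was 2.12-fold (1.76 to 2.56) higher in CM than in IM. The same was seen for COL1A1, whose larger second row, typed miscRNA, had 64.1 scaled CPM in CMT, 46.8 in CM and 62.1 in IM, and the ratio of CM to IM was 0.754 (0.688 to 0.826) there and 0.735 (0.586 to 0.921) on the symbol row. AGRN did not give the same size. Its second row, also typed miscRNA, held most of the reads, with 2300 counts in CMT, 2906 in CM and 1804 in IM. That row had a ratio of 1.59 (1.499 to 1.70) for CMT over IM against 2.50 (2.05 to 3.07) on the symbol row. The second row alone was called by neither rule in any comparison. Both rows summed gave 1.66 (1.57 to 1.77) for CMT over IM, so the direction was shared and the 2-fold call was that of the smaller row. COL15A1 rows differed for CMT over CM, with ratios of 0.789 (0.704 to 0.884) on the symbol row and 1.14 (0.996 to 1.29) on the second row. On their sum the ratio was 0.920 (0.845 to 1.0). The point ratios of the rows lay on either side of 1, but the interval of the second row included 1. The COL18A1 ratio of CM to IM came to 1.13 (1.02 to 1.26) on the second row, which held more counts, and to 1.17 (1.06 to 1.30) on the sum. Over the 9 genes, the intervals of the 2 rows overlapped for 8 between CM and IM (all but COL15A1), for 7 between CMT and CM (all but COL15A1 and AGRN) and for 8 between CMT and IM (all but AGRN).

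**Figure D3:**
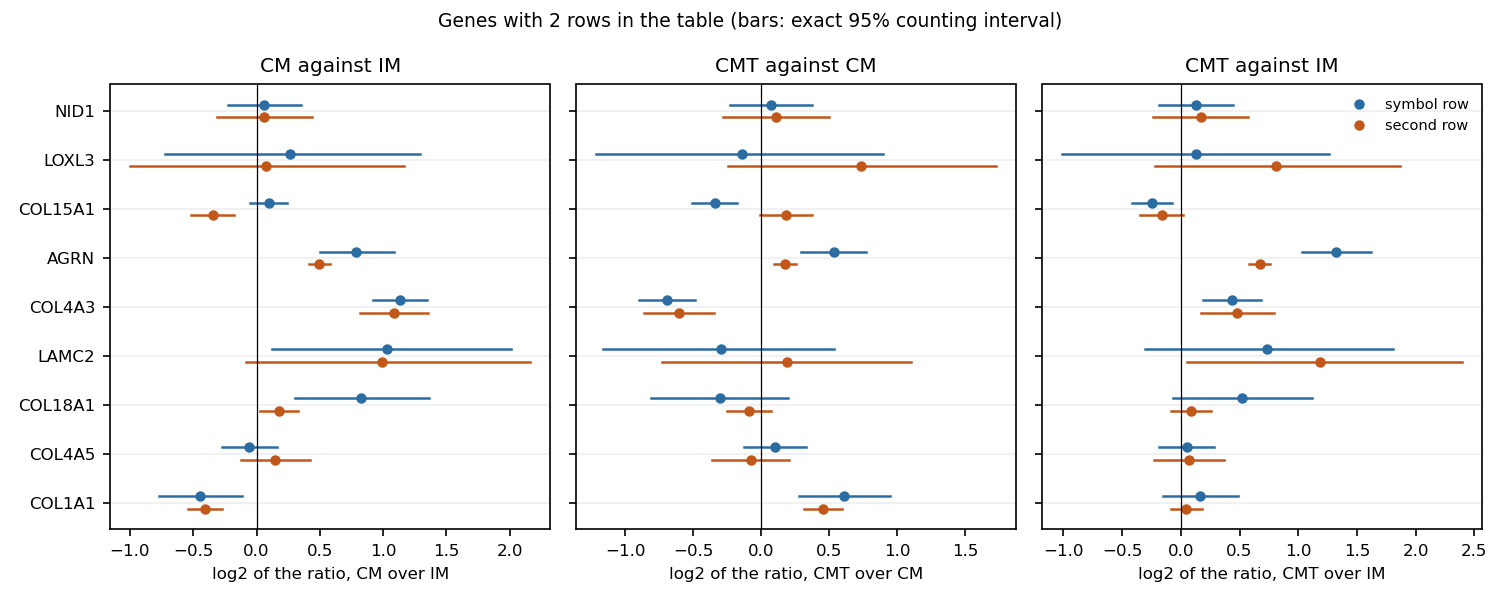
Log2 ratio with exact 95% counting interval on the symbol row (blue) and the second row (orange) of 9 genes, in each comparison. The rows of COL4A3 and COL1A1 lie on each other, and those of AGRN share a direction and differ in size. The points of COL15A1 lie on either side of 0 in the first and second panels. Their intervals do not overlap there, though in each panel an interval reaches across 0.

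Fibrillar collagens, the rope-forming proteins that accumulate in scars, were not called in any comparison. COL3A1 had 284 scaled CPM in CMT, 272 in CM and 339 in IM, and COL1A2 had 145 scaled CPM in CMT, 150.1 in CM and 211 in IM. IM was the highest library for both. COL1A2 had ratios of 0.711 (0.676 to 0.747) for CM over IM and 0.685 (0.648 to 0.725) for CMT over IM, and COL3A1 had 0.801 (0.771 to 0.832) for CM over IM and 0.837 (0.802 to 0.872) for CMT over IM, all beyond counting error and all short of 1.5-fold. COL1A1, which pairs with COL1A2 in collagen I, had 11.8 scaled CPM in CMT, 7.72 in CM and 10.5 in IM, so that the counting intervals of CMT and IM overlapped for COL1A1 and did not for COL1A2. The collagen V genes COL5A1, COL5A2 and COL5A3, which seed fibrils, had log2 folds of 0.38, -0.11 and 0.54 for CMT over IM. COL27A1, with 44 counts in CMT, 56 in CM and 40 in IM, completed the 7 compared. As a group the fibrillar collagens summed to 498 scaled CPM in CMT, 482 in CM and 611 in IM, and the sum for CM had a ratio of 0.789 (0.767 to 0.811) to IM. The 8 smooth muscle and pericyte markers were compared with none at 0, and they summed to 725 scaled CPM in CMT, 638 in CM and 825 in IM. Their sum gave a CM to IM ratio of 0.773 (0.755 to 0.793). CNN1 was the only one of them called lower in CM than in IM, which is 12.5% of the 8, beside 3.42% of all compared genes. The part of these markers in the collagen ratios was not tested. The 10 fibroblast and stroma markers, none at 0, summed to 431 scaled CPM in CMT, 435 in CM and 491 in IM.

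Collagen VI forms beaded filaments around cells, and 1 of its chains differed. COL6A5, a chain of restricted expression, had 17.2 scaled CPM in CMT, 33.0 in CM and 35.0 in IM, from 228 counts in CMT, 624 in CM and 580 in IM. CMT was the low pool, and CM and IM overlapped. COL6A5 was 1.92-fold (1.64 to 2.24) lower in CMT than in CM and 2.03-fold (1.74 to 2.38) lower in CMT than in IM, and the ratio of CM to IM was 0.942 (0.840 to 1.06). The main chains were not called: COL6A2 had 70.6 scaled CPM in CMT, 57.7 in CM and 63.3 in IM, COL6A3 had 60.4 scaled CPM in CMT, 55.1 in CM and 52.4 in IM, and COL6A6 had 0 counts in all libraries. Among fibril-associated collagens, COL14A1 had 60.1 scaled CPM in CMT, 53.2 in CM and 64.0 in IM and COL21A1 had 4.23 scaled CPM in CMT, 5.40 in CM and 5.86 in IM. A row that RefSeq pairs with COL12A1, another of this class, had 119 scaled CPM in CMT, 127 in CM and 135 in IM. COL7A1, of the anchoring fibrils of skin, had 11.1 scaled CPM in CMT, 9.26 in CM and 6.52 in IM, a CMT to IM ratio of 1.70 (1.32 to 2.20). The network-forming collagens of vessel walls had 2.64 scaled CPM in CMT, 3.86 in CM and 2.66 in IM for COL8A1, and 6.72 scaled CPM in CMT, 5.71 in CM and 7.01 in IM for COL8A2. The transmembrane collagens COL13A1 and COL17A1 were sparse, with 15 counts in CMT, 42 in CM and 16 in IM for COL13A1 and 27 counts in CMT, 15 in CM and 19 in IM for COL17A1. COL13A1 had a CM to IM ratio of 2.3 (1.27 to 4.38) and COL17A1 a CMT to CM ratio of 2.57 (1.32 to 5.20), and neither was called.

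POSTN differed most clearly among the glycoproteins of the interstitium. POSTN codes for periostin, a matricellular protein that binds collagen and fibronectin and is known as a tissue marker of kidney injury. It had 22.5 scaled CPM in CMT, 30.4 in CM and 14 in IM, from 298 counts in CMT, 574 in CM and 232 in IM, and no counting interval overlapped another. POSTN was 2.17-fold (1.86 to 2.54) higher in CM than in IM, and CMT stood between, at ratios of 0.741 (0.642 to 0.854) to CM and 1.61 (1.35 to 1.92) to IM that were not called. SPARC, a collagen-binding glycoprotein, had 45.0 scaled CPM in CMT, 59.2 in CM and 48.9 in IM, and FN1, fibronectin, had 112 scaled CPM in CMT, 127 in CM and 117 in IM. CM was the highest library for each of these, and the ratios of CM to IM were 1.21 (1.10 to 1.33) for SPARC and 1.08 (1.02 to 1.15) for FN1. Of the fibroblast and stroma markers, 4 of 9 compared were above 0 for CM over IM and the ratio of their sums was 0.886 (0.859 to 0.914). Of the mesangial markers, 5 of 5 were above 0, with a ratio of sums of 1.25 (1.19 to 1.32). The part of either cell type in the POSTN ratio was not tested. Single markers differed in direction, with THY1 at a log2 fold of 0.57 and C7 at -0.62.

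Lysyl oxidases, the copper enzymes that cross-link collagen and elastin, were low in counts and were not called. LOX had 41 counts in CMT, 89 in CM and 60 in IM, and LOXL1 had 68 counts in CMT, 133 in CM and 96 in IM. For CMT over CM the ratios were 0.658 (0.443 to 0.963) for LOX and 0.730 (0.537 to 0.985) for LOXL1, with upper bounds just below 1, whereas LOXL4 had 1.34 (0.955 to 1.87). LOXL3 completed the family with 14 counts in CMT, 22 in CM and 16 in IM, and LOXL2 is not analysed here. COL4A3BP, matched by its letters only, had 12 scaled CPM in CMT, 13.6 in CM and 10.9 in IM and was not called.

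**Figure D4:**
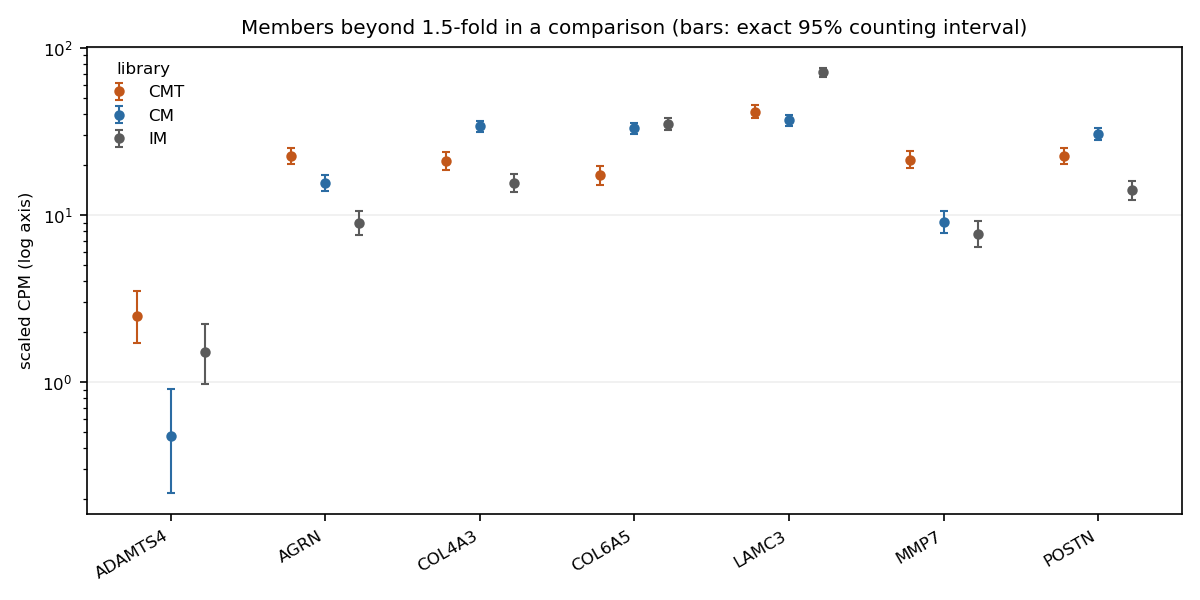
Scaled CPM (log axis) of the 7 members beyond 1.5-fold in at least 1 comparison, with exact 95% counting intervals. CM is the highest library for COL4A3 and POSTN and the lowest for ADAMTS4, CMT is the highest for AGRN and MMP7 and the lowest for COL6A5, and IM stands above both others for LAMC3.

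Among the metalloproteinases, MMP7 differed. MMP7, matrilysin, is a small secreted protease of epithelia that is known to be made by injured tubules. Its level was 21.4 scaled CPM in CMT, 9.05 in CM and 7.73 in IM, from 283 counts in CMT, 171 in CM and 128 in IM. CMT stood above both other libraries, and CM and IM overlapped. MMP7 was 2.36-fold (1.95 to 2.87) higher in CMT than in CM and 2.77-fold (2.24 to 3.44) higher in CMT than in IM, and CM had a ratio of 1.17 (0.925 to 1.48) to IM. Of macrophage markers, 7 of 8 were in the table, none was at 0, and they summed to 111 scaled CPM in CMT, 88.6 in CM and 75.1 in IM, and their part in the MMP7 difference was not tested.

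Other MMPs were not called. MMP2, gelatinase A, had 55.8 scaled CPM in CMT, 58.9 in CM and 46.0 in IM, and MMP14, the membrane-bound enzyme that activates pro-MMP2, had 29.0 scaled CPM in CMT, 28.6 in CM and 20.7 in IM. IM held the lowest level of both. The ratio of CM to IM was 1.28 (1.17 to 1.41) for MMP2 and 1.38 (1.2 to 1.59) for MMP14. MMP11 had 50.3 scaled CPM in CMT, 50.3 in CM and 43.1 in IM, and MMP15, another membrane-bound enzyme, had 23.1 scaled CPM in CMT, 20.7 in CM and 22.5 in IM. Low counts limit the rest: MMP9, gelatinase B, had 23 counts in CMT, 17 in CM and 17 in IM, MMP19 had 33 counts in CMT, 61 in CM and 48 in IM, and MMP23B had 30 counts in CMT, 68 in CM and 34 in IM. MMP23B had a CMT to CM ratio of 0.630 (0.396 to 0.982). The inhibitors were not called, with TIMP1 at 21.7 scaled CPM in CMT, 19 in CM and 18.6 in IM and TIMP2, which also takes part in activating pro-MMP2, at 80.8 scaled CPM in CMT, 85.4 in CM and 76.0 in IM. TIMP-3, an inhibitor bound to the matrix and named outside the rule, had 303 scaled CPM in CMT, 327 in CM and 318 in IM, and its ratios lay between 0.925 and 1.03. TIMP-4 had 0 counts in all libraries. Of the 8 compared MMPs, 6 had a log2 fold above 0 for CM over IM and 7 for CMT over IM.

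**Figure D5:**
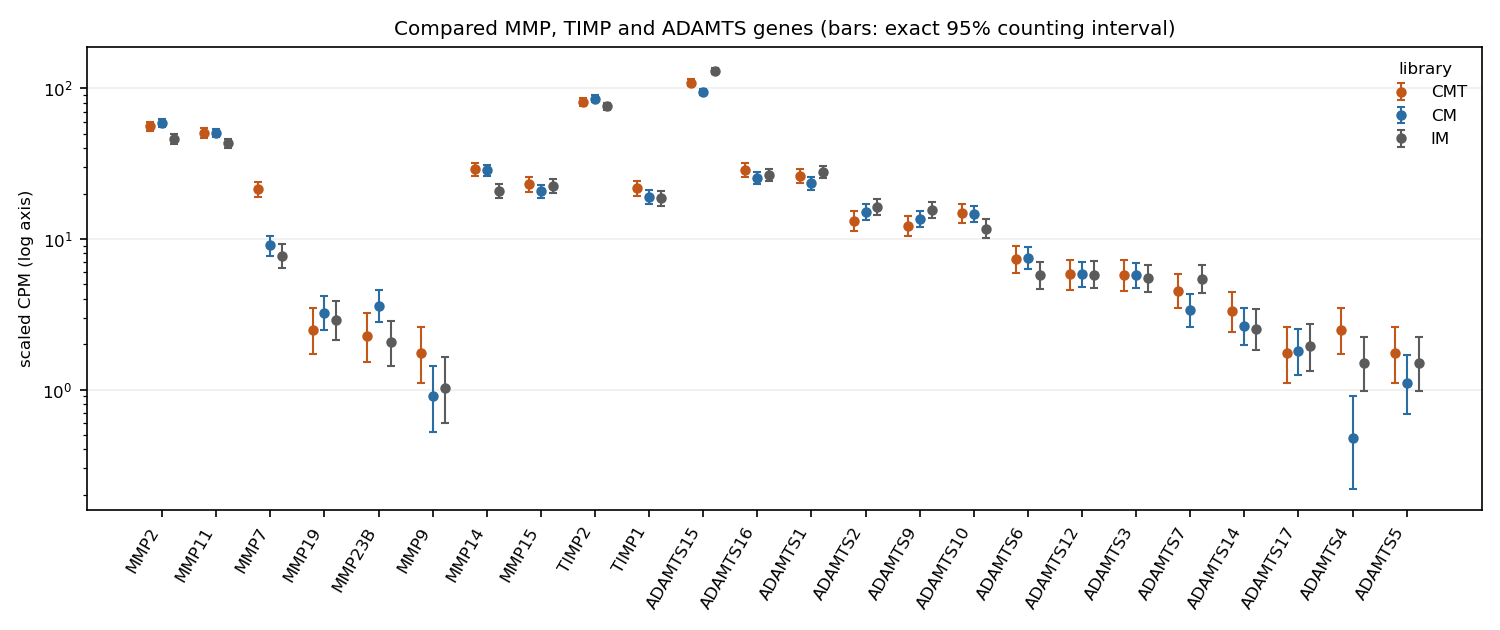
Scaled CPM (log axis) of the compared MMP, TIMP and ADAMTS genes in the CMT, CM and IM libraries, with exact 95% counting intervals. MMP7 is set apart by its CMT level and ADAMTS4 by its CM level, while TIMP1 and TIMP2 lie close together in all libraries.

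The ADAMTS family holds proteases of proteoglycans, procollagens and other secreted proteins, and 14 of its 19 members were compared. ADAMTS4, a protease of aggrecan and versican, had 33 counts in CMT, 9 in CM and 25 in IM, or 2.49 scaled CPM in CMT, 0.476 in CM and 1.51 in IM. CM was the low library, and its counting interval lay below those of CMT and IM. ADAMTS4 was 5.24-fold (2.45 to 12.4) higher in CMT than in CM, the only member beyond 2-fold in that comparison, on 9 counts in CM. For CM over IM its ratio was 0.315 (0.130 to 0.698), whose interval reached inside 1.5-fold. It reached the mean of 1 scaled CPM only through its CMT level, and it did not enter when genes had to reach a mean of 5 scaled CPM. TGFB2, a ligand and no member, was low in CM as well, with 65 counts in CMT, 32 in CM and 78 in IM. It was 2.78-fold (1.82 to 4.34) lower in CM than in IM. TGFB1 and TGFB3 were not called in any comparison, and a link of TGFB2 to ADAMTS4 was not tested.

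ADAMTS15, another protease of aggrecan and versican, had 109 scaled CPM in CMT, 94.3 in CM and 130.5 in IM. IM was the highest library and CM the lowest, with a ratio of 0.723 (0.678 to 0.770) for CM over IM that was not called. ADAMTS1 had 26.1 scaled CPM in CMT, 23.3 in CM and 27.8 in IM, ADAMTS7 had 4.53 scaled CPM in CMT, 3.39 in CM and 5.44 in IM and ADAMTS9 had 12.2 scaled CPM in CMT, 13.5 in CM and 15.6 in IM. ADAMTS7 had a ratio of 0.623 (0.445 to 0.868) for CM over IM. The procollagen N-proteinases ADAMTS2, ADAMTS3 and ADAMTS14, which trim fibrillar collagens, had log2 folds of -0.12, 0.07 and 0.06 for CM over IM. ADAMTS16 had 28.6 scaled CPM in CMT, 25.4 in CM and 26.7 in IM. The other compared members (ADAMTS5, ADAMTS6, ADAMTS10, ADAMTS12, ADAMTS17) had log2 folds between -0.41 and 0.38 in the same comparison.

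The 32 members below a mean of 1 scaled CPM say little. With 0 counts in all libraries were the cartilage collagens COL2A1, COL9A1 and COL10A1, then COL22A1, COL6A6, ADAMTS18, LOXHD1 and the proteases MMP3, MMP8, MMP26 and MMP27, to which the one-sided limit given above applies, while the upper ends of the 2-sided intervals are 0.279 scaled CPM in CMT, 0.195 in CM and 0.223 in IM. MMP1 and MMP25 had 2 counts each in CMT and 0 in CM and IM. A second row that RefSeq pairs with MMP25 had 16 counts in CMT, 12 in CM and 12 in IM. COL24A1 had 0 counts in CMT, 11 in CM and 5 in IM, and COL9A2 had 6 counts in CMT, 2 in CM and 18 in IM. ADAMTS13, the protease of von Willebrand factor, had 5 counts in CMT, 22 in CM and 19 in IM. The remaining low members (COL11A2, COL16A1, COL19A1, COL23A1, COL25A1, COL28A1, LAMB3, LAMB4, MMP12, MMP16, MMP17, MMP21, MMP24, ADAMTS8, ADAMTS19, ADAMTS20) had at most 19 counts in a library.

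Other genes of matrix biology were read by the 1.5-fold rule. Of 19 compared genes of collagen folding and processing, 1 was lower and 0 higher in CM against IM, 1 was lower and 0 higher in CMT against CM, and 0 were called between CMT and IM. A single gene is 5.26% of this list, beside 3.42% of all compared genes lower in CM against IM and 2.61% in CMT against CM. SERPINH1, the chaperone of procollagen in the endoplasmic reticulum, had 227 scaled CPM in CMT, 152 in CM and 308 in IM and was 2.02-fold (1.93 to 2.12) lower in CM than in IM. BMP1, which cuts the C-propeptides of procollagens, had 58.3 scaled CPM in CMT, 99 in CM and 63.5 in IM and was 1.70-fold (1.56 to 1.85) lower in CMT than in CM. The median log2 fold of this list was -0.12 for CM over IM, 0.09 for CMT over CM and -0.13 for CMT over IM.

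Of 34 compared genes of elastic fibres, matricellular proteins and small proteoglycans, CM had 2 higher and 0 lower against IM, CMT had 2 higher and 3 lower against CM, and CMT had 1 higher and 2 lower against IM. As shares of the list, 5.88% were higher in CM against IM, beside 2.81% of all compared genes. In CMT against CM, 5.88% were higher and 8.82% lower, beside 3.68% and 2.61% of all, and in CMT against IM 2.94% were higher and 5.88% lower, beside 2.3% and 1.44%. FMOD, fibromodulin, which binds collagen fibrils, had 111 scaled CPM in CMT, 205 in CM and 114 in IM, and TGFBI, a collagen-binding protein, had 21.2 scaled CPM in CMT, 41.7 in CM and 22.3 in IM. CM stood above both others for each gene. In CM against IM, FMOD was higher by 1.80-fold (1.70 to 1.90) and TGFBI by 1.87-fold (1.65 to 2.13), and in CMT against CM they were lower by 1.85-fold (1.74 to 1.96) and 1.97-fold (1.71 to 2.26). VCAN, the proteoglycan versican, had 5.89 scaled CPM in CMT, 9.63 in CM and 14.3 in IM and was 2.43-fold (1.87 to 3.18) lower in CMT than in IM. The low-count gene SMOC2, with 32 counts in CMT, 88 in CM and 94 in IM, was 2.35-fold (1.56 to 3.63) lower in CMT than in IM, and BCAN, the proteoglycan brevican, with 25 counts in CMT, 11 in CM and 13 in IM, was 3.25-fold (1.54 to 7.31) higher in CMT than in CM. BCAN reached the mean of 1 scaled CPM only through its CMT level, so its entry among the compared genes depends on the library where it is high. SPP1, osteopontin, a secreted glycoprotein that binds integrins and CD44, was 2.06-fold (1.93 to 2.20) higher in CMT than in CM and 1.80-fold (1.69 to 1.93) higher in CMT than in IM. MGP, lower in CMT than in CM, completes the calls. Median log2 folds of these genes were 0.06 for CM over IM, -0.06 for CMT over CM and -0.02 for CMT over IM.

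Of 29 compared integrins and other receptors, CD44, a receptor of hyaluronan and osteopontin, was the single call in each comparison, with 272 scaled CPM in CMT, 44.6 in CM and 159 in IM. It was lower in CM than in the other libraries and 1.71-fold (1.63 to 1.80) higher in CMT than in IM. A single gene is 3.45% of this list, beside 3.42% of all compared genes lower in CM against IM, 3.68% higher in CMT against CM and 2.3% higher in CMT against IM. Median log2 folds of the receptors were 0.04 for CM over IM, 0.03 for CMT over CM and 0.06 for CMT over IM. Of 23 genes of the TGF-beta axis, CM had 2 lower and 0 higher against IM, and CMT had 1 higher and 0 lower against CM. The lower ones are 8.70% of this list in CM against IM, where 3.42% of all compared genes were lower, and the higher one is 4.35% in CMT against CM, where 3.68% of all were higher. The 2 lower ones were TGFB2 and LTBP1, which tethers latent TGF-beta to the matrix and had 32 scaled CPM in CMT, 22 in CM and 40.6 in IM, lower in CM by 1.85-fold (1.63 to 2.09). TGFB2 was the gene higher in CMT than in CM, by 2.90-fold (1.87 to 4.58). Median log2 folds of the axis were 0.00 for CM over IM, 0.05 for CMT over CM and 0.07 for CMT over IM.

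Of 25 genes of the plasmin system and other proteolysis, CM had 5 lower and 0 higher against IM, CMT had 3 higher and 0 lower against CM, and CMT had 3 lower and 0 higher against IM. The 5 lower genes of 25 in CM against IM stand beside 3.42% of all compared genes, well above that share. The lower genes in CMT against IM are 12% of the list, beside 1.44% of all, and the higher ones are 12% in CMT against CM, beside 3.68%. The genes were listed with earlier results known, so these shares are a description only. CTSB, the lysosomal protease cathepsin B, had 7056 scaled CPM in CMT, 5219.7 in CM and 11534 in IM and was 2.21-fold (2.19 to 2.23) lower in CM than in IM. MEP1B, a meprin of the proximal tubule brush border that cuts matrix proteins, had 32.1 scaled CPM in CMT, 32.8 in CM and 74.4 in IM, 2.32-fold (2.07 to 2.59) lower in CMT than in IM. SERPINF2, the inhibitor of plasmin, had 630.1 scaled CPM in CMT, 317 in CM and 506 in IM and was 1.99-fold (1.92 to 2.06) higher in CMT than in CM. PLG, plasminogen, had 16 counts in CMT, 4 in CM and 128 in IM and was 6.40-fold (3.79 to 11.5) lower in CMT than in IM. Likewise PLG was compared only because of its IM level, with 1.21 scaled CPM in CMT, 0.212 in CM and 7.73 in IM, and it counts among the calls of all 3 comparisons. These 4 genes and ADAMTSL4 made up the calls in CM against IM, PLG, SERPINF2 and CTSL those in CMT against CM, and PLG, CTSB and MEP1B those in CMT against IM. Median log2 folds were -0.05 for CM over IM, 0.12 for CMT over CM and -0.08 for CMT over IM.

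Markers of further cell types that kidney tissue can hold were read the same way, and their part in the ratios above was not tested. The 8 endothelial markers in the table summed to 586 scaled CPM in CMT, 568 in CM and 609.5 in IM. Of the 7 compared, 0 were called, and TIE1 was at 0 counts in CMT and CM. The 5 mesangial markers summed to 166 scaled CPM in CMT, 184 in CM and 147 in IM. Of the 6 compared macrophage markers, CSF1R was called higher in CM and in CMT than in IM, and C1QA higher in CMT than in IM. In CM against IM this is 16.7% of the 6, beside 2.81% of all compared genes. In CMT against IM it is 33.3%, beside 2.3%. The 8 lymphocyte markers summed to 28 scaled CPM in CMT, 34.8 in CM and 26.3 in IM. CD79A, a B cell receptor subunit, was called higher in CM than in IM and lower in CMT than in CM. A single gene is 14.3% of the 7 compared, beside 2.81% of all higher in CM against IM and 2.61% lower in CMT against CM. On lists this short nothing is read from the shares. Among the 7 compared proximal tubule markers, 0 were called.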

How the data were processed

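Per the labels' protocols, kidney RNA was extracted with TRIzol, pooled in equal amounts within a group and made into libraries with an Ion Torrent total RNA kit, while the design text names an Illumina sequencer; the platform was not settled here. The authors deposited raw counts per gene, whole numbers with 1 column per group. FastQC is the tool named in the submitters' processing notes; the aligner, counting program, strand setting, genome build and annotation are not given in the sources used here. For that reason coordinates, lengths and sequences are not printed, counts are ranked between genes only to choose which to name, and reads of similar or overlapping genes may be shared. The table's 2 unnamed columns, holding 4 values, were not used.

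Effective library sizes used TMM factors from edgeR 4.0.16 (R 4.3.3), and intervals were Clopper-Pearson intervals of the share of counts, scaled by library size (scipy 1.17.1, Python 3.11.15). With 1 library per group no count model was fitted and no p-value is given; intervals and floors cover counting error only, since reads are not independent molecules. Log2 folds used a prior count of 2. Calls were made over all 15472 genes with a mean of at least 1 scaled CPM. The intervals were tried on simulated counts that held counting error only, so the trial says nothing about spread between pigs or pools. Alternatives included size factors from DESeq2 1.42.0. Symbols of numbered rows were looked up in the RefSeq gene table of Sscrofa11.1.

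The members and the 13 lists of other genes were chosen with earlier results of these data known. The naming rule took 48 members: all those called, the 6 highest and 6 lowest log2 folds in each comparison, those with most counts in each role and a fixed set. The other members are named to account for every member. Of each list, up to 2 called genes per direction were named. THY1, C7, TGFB1, TGFB3 and the called genes named without values were added after their values were seen. A few genes are not reported here.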

Additional observations from a re-analysis of the deposited data

How the results depend on the processing

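No paired analysis was possible because each group is 1 pooled library, and for the same reason no replicate could be left out. Under 11 alternatives (4 of scaling or library totals, 2 of the filter, thinning to the smallest library, a 99% interval, a prior count of 0.5, looked-up symbols, and leaving out COL4A3BP with LOXHD1), the count beyond 1.5-fold was 3 to 4 for CM against IM, 2 to 4 for CMT against CM and 4 throughout for CMT against IM. Beyond 2-fold, the count for CMT against IM was 1 in place of 2 with plain library totals and 1 with a 99% interval, which is wider by construction, AGRN being lost each time. For CM against IM it was 1 in place of 0 without a filter, through COL9A2 (6 counts in CMT, 2 in CM and 18 in IM), and for CMT against CM it was 0 in place of 1 with a filter of 5 CPM, because ADAMTS4 is too low to enter. The unfiltered 1.5-fold counts also took in COL9A2 and COL24A1. The median log2 fold of the members ran from 0.01 to 0.08 for CM over IM, -0.05 to 0.04 for CMT over CM and 0.07 to 0.14 for CMT over IM. The median for CMT over CM was below 0 with plain library totals, where the median of all compared genes was -0.07. Of 1551 values of the 48 members under the naming rule, 1546 kept their call by the 1.5-fold rule or, where uncalled, stayed within their interval. The loss of a 2-fold call, as for AGRN, was not scored among these values. The other 5 moved, all with plain library totals and none of them called: COL3A1 (-0.01, with its sign turned), COL4A1, COL4A2 and LAMB1 for CMT over CM, and LAMB1 for CMT over IM. Under the 2 filters, the looked-up symbols and the leaving out of COL4A3BP with LOXHD1, a gene's counts and scaling stayed as they were. Agreement there was fixed in advance, and the 99% interval also left each log2 fold as it was. Calls do not use the prior count, so their agreement under a prior count of 0.5 was fixed in advance too. Members below the filter of 5 CPM were left out of the 1551 values and not counted as moved. Depth limits the low members: at 9 to 33 counts, as for ADAMTS4, an interval spans several-fold.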
